A study of Mus musculus with 38 samples.

Results

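A set of 10 genes of mitochondrial biogenesis and dynamics were followed in epithelial cells isolated from the intestine of mice with and without hexokinase 2, before and during chemically induced colitis. The genes were chosen by name: the coactivators Ppargc1a and Ppargc1b, the transcription factors Esrra and Nrf1, the mitochondrial DNA factor Tfam, the fusion genes Mfn1, Mfn2 and Opa1, the fission gene Dnm1l and the mitophagy kinase gene Pink1. All 10 were found among the 46078 genes of the count files, and all 10 passed the filter on low counts in every comparison.

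RNA was sequenced from 38 C57BL/6 mice, 1 library per animal. In KO mice (Hk2ΔIEC), a floxed Hk2 allele was deleted by Cre recombinase driven by the Villin promoter, which is active in intestinal epithelium; WT mice were littermates that carried the floxed alleles (Hk2 fl/fl). Mice were untreated (day 0) or had drunk 1.5% (w/v) dextran sodium sulfate (DSS), a polymer that injures the colonic epithelium, for 3 or 7 days. There were 4 WT and 5 KO libraries on day 0, 7 WT and 8 KO on day 3, and 7 WT and 7 KO on day 7. DSS mice were males of 10 to 12 weeks, with both genotypes in shared cages; untreated mice of the study were 9 to 11 or 86 to 92 weeks of age, and neither the age nor the sex of the day 0 mice is given in their labels. The series text speaks of colon tissue, whereas the sample labels speak of isolated epithelial cells. All 10 epithelial markers on a fixed list (Epcam, Cdh1, Vil1 and others) had counts in every group, with a summed level of 9187 to 20111 CPM (a gene's counts relative to all counts of its library, scaled by the TMM method).

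Mitochondrial biogenesis is the growth of the organelle's mass and the copying of its genome. PGC-1α and PGC-1β, the products of Ppargc1a and Ppargc1b, bind nuclear receptors and other transcription factors, among them ERRα (Esrra) and NRF1 (Nrf1), and raise the transcription of nuclear genes for respiration; TFAM packages mitochondrial DNA and starts its transcription. Mitofusins (Mfn1, Mfn2) fuse outer membranes, OPA1 fuses inner membranes and keeps the cristae in shape, DRP1 (Dnm1l) constricts and divides the organelle, and PINK1 marks damaged mitochondria for removal by mitophagy. Hexokinase 2 carries out the first step of glucose breakdown and can bind the mitochondrial outer membrane. In colonic epithelium, mitochondrial respiration supplies much of the energy of mature cells.

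Depth was 10.5 to 60.6 M counts per library. Several libraries stood apart. Hk2 was called lower in KO on day 0 (log2 fold change -2.20, SE 0.30, edgeR adjusted p = 0.0331), with 336.9 ± 89.4 CPM in WT (SD, n = 4) and 71.8 ± 29.7 in KO (n = 5). On day 3 the library labelled d3_KO_345 had 440 CPM of Hk2, above every WT library of that day (99.3 to 224 CPM), so it goes against its label; the other 7 KO libraries had 70.9 to 131 CPM. The lowest WT library, d3_WT_346, lay inside that KO range, and Hk2 was not called on this day (-0.27, adjusted p = 0.802). On day 7 Hk2 was at 231 to 598 CPM in WT and 56.6 to 260 CPM in KO (-1.25, SE 0.30, adjusted p = 0.291). Genes of the mitochondrial genome took 61.7% of the counts in d0_KO_32, 41.7% in d3_WT_381 and 26.6% in d7_WT_386, against 6.25 to 24.7% in the others. Each member's test between groups was therefore also fitted without these 5 libraries, a choice made after seeing the data. The day 0 libraries carry another prefix in their file names than the day 3 and day 7 libraries. Their ratio of the mitochondrial ribosomal RNA mt-Rnr2 to the messenger RNA mt-Co1 was 2.44 to 3.35, against 0.0430 to 0.133 in all day 3 and day 7 libraries, so that day 0 cannot be told apart from the series of libraries. On day 0, 1 WT and 1 KO library had Xist RNA (412 and 454 CPM) and hardly any Ddx3y RNA, unlike all the others.

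Ppargc1a, which lies on chromosome 5 (51454250 to 51567726, minus strand, GRCm38 build), was the 1 member that passed the test between day 3 and day 7, and did so in both genotypes. Its promoter sequence is shown because the results turn on this gene. The 250 bases before its start in RefSeq (GRCm38.p6, chr5:51567726-51567975, minus strand, read 5′ to 3′) hold the core of the cAMP response element, in capitals, on the reverse strand:
Ppargc1a: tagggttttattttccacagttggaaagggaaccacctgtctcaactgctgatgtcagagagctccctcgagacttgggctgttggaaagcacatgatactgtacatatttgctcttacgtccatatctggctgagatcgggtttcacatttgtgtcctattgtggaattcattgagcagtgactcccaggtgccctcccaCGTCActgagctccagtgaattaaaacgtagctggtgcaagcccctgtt

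This core, TGACG, was searched on both strands and found in 17.8% of all 32851 promoter windows of this length. Windows of 9 of the 10 members were searched, 13 in all, without Ppargc1b. Of these 13 windows, 5 held the core, and they belonged to 3 members (Ppargc1a, Mfn1 and Mfn2). Neither the full element TGACGTCA (1.55% of all windows), the E-box CACGTG (6.02%), nor TCAAGGTCA, bound by estrogen-related receptors (0.387%), occurred in any of these 13 windows. Other members held motifs of factors that are known regulators of nuclear mitochondrial genes. The core of the NRF1 motif, CGCATGCG (1.55% of all windows), stood before Opa1 (chr16:29579266-29579293, plus strand), and the ETS motif CCGGAAGT (2.88%, searched on both strands) stood before the RefSeq starts of Tfam (chr10:71238074-71238101, minus strand) and Mfn1 (chr3:32529428-32529455, plus strand). The count files place the start of Tfam farther upstream, at 71238280, so that its stretch lies inside the gene as counted. These stretches are shown with the motif in capitals:
Opa1: tggctccccgCGCATGCGcatgtcatcc
Tfam: ctgccgcggaCCGGAAGTccgggcttcc
Mfn1: atccgaagcgCCGGAAGTagccgcccct

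A match describes the letters only; binding was not measured here.

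Levels differed widely between members. Per kilobase of exon, Esrra was the highest in each of the 6 groups, with group means of 50.0 to 69.0 CPM per kb, and Nrf1 the lowest with 2.50 to 3.02. Ppargc1a came ninth of the 10 members in WT on day 0 (5.89 ± 0.84 CPM per kb, n = 4) and on day 3 (7.63 ± 3.18, n = 7). Dnm1l, Pink1 and Mfn2 lay between, at 26.2, 24.6 and 21.9 CPM per kb in WT on day 0. Over the 38 libraries the coefficient of variation of CPM was largest for Ppargc1a (39.5%) and Pink1 (25.6%) and smallest for Opa1 (8.81%) and Mfn1 (8.84%). The highest group mean of Ppargc1a was 1.96 times its lowest; for Mfn1, Opa1 and Nrf1 this ratio was 1.20, 1.20 and 1.21.

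**Figure D1:**
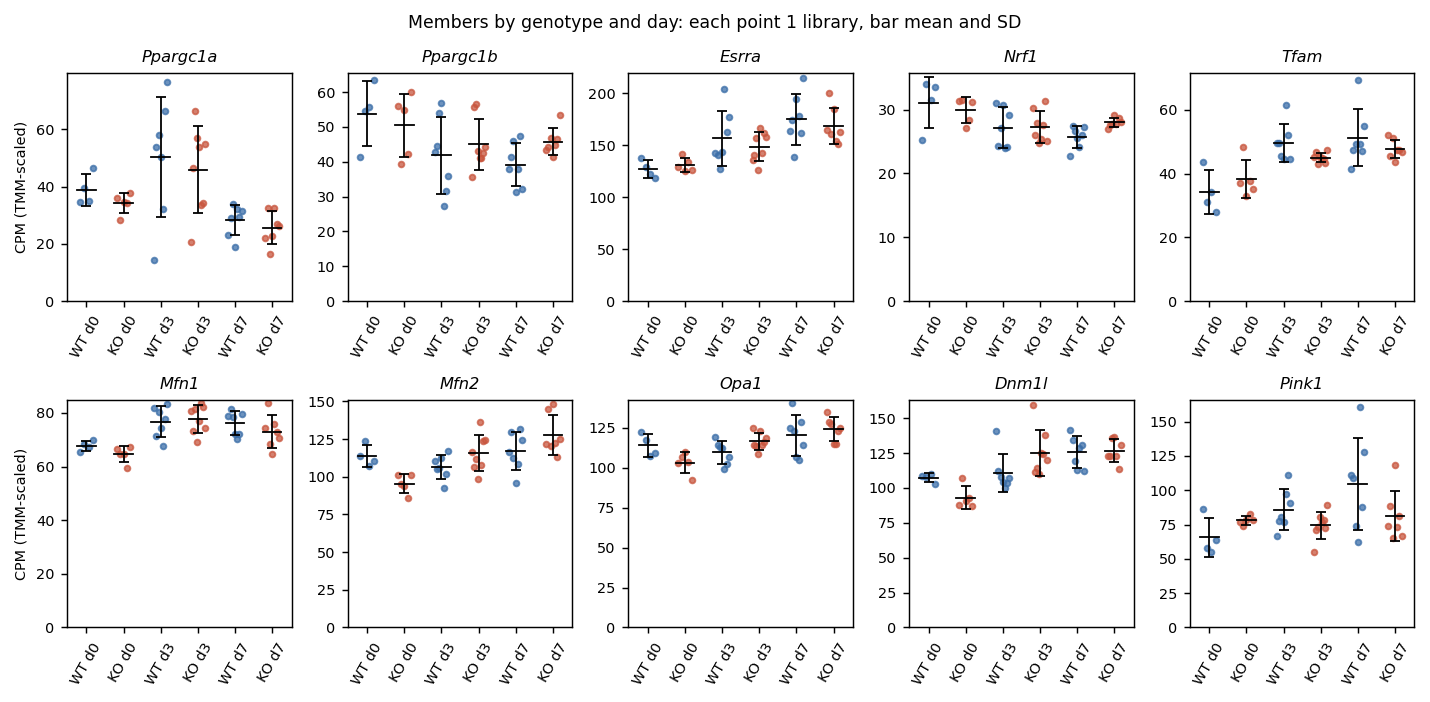
CPM (TMM-scaled, linear axis from 0) of each member in the 38 libraries, by genotype (WT blue, KO red) and day; each point is 1 library, and the black lines give the mean and SD of the group. Ppargc1a spread most on day 3, from 14.4 to 76.5 CPM in WT, and was narrower and lower on day 7.

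Ppargc1a fell from day 3 to day 7 in both genotypes. In WT, day 3 libraries ranged from 14.4 to 76.5 CPM with a median of 53.9, and day 7 libraries from 19.04 to 33.9 with a median of 29.5. In KO, day 3 libraries ranged from 20.5 to 66.5 CPM with a median of 50.1, and day 7 libraries from 16.4 to 32.7 with a median of 26.4. All 7 day 7 libraries of each genotype lay below the day 3 median of that genotype, yet the ranges overlapped: 5 of 7 WT and 7 of 8 KO libraries of day 3 lay above the highest day 7 library. The lowest day 3 libraries were d3_WT_346 (14.4 CPM), d3_WT_381 (32.2) and the one labelled d3_KO_345 (20.5).

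For Ppargc1a the log2 fold change from day 3 to day 7 was -0.81 in WT (SE 0.26, edgeR adjusted p = 0.0411, n = 7 and 7) and -0.84 in KO (SE 0.22, adjusted p = 0.0114, n = 8 and 7), that is 0.569 and 0.560 of the day 3 level. Of all genes tested, 19.3% were called in WT and 19.3% in KO; 8.7% and 8.83% were called lower, so 1 called member of 10 is near the background. The fall did not differ between genotypes beyond error (interaction -0.01, SE 0.35, with a range of 2 SE either side of -0.71 to 0.70). Without the 5 libraries that stood apart the fold changes were -1.03 in WT (adjusted p = 0.000113) and -0.95 in KO (adjusted p = 0.00105). Leaving out the lowest day 3 libraries (d3_WT_346, d3_WT_381 and the one labelled d3_KO_345) enlarges a fall by itself, so these values add no support. The lowest WT library of day 7, d7_WT_386, was left out too.

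The call in WT was near the threshold. It was lost in 11 of 14 fits that left out 1 library, with an adjusted p of up to 0.0898; it held without d3_WT_346, d3_WT_381 or d7_WT_370. The call in KO held in 15 of 15 such fits, with an adjusted p of up to 0.026.

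Leukocyte and inflammation markers moved with the day. The 15 leukocyte markers, all found and none at 0 in a whole group, summed to 21.9 to 78.5 CPM in WT and 54.5 to 163 CPM in KO on day 3, and to 90.5 to 463 and 145 to 578 CPM on day 7, so that the days did not overlap in WT; the mean log2 CPM of these markers did not overlap between the days in either genotype. The 12 neutrophil and inflammation markers summed to 74.7 to 214 CPM in WT and 80.8 to 514 CPM in KO on day 3, and to 284 to 1907 and 240 to 2579 CPM on day 7. The highest of these day 3 sums belonged to d3_WT_346 in WT and to the library labelled d3_KO_345 in KO, which were also the libraries lowest in Ppargc1a in their groups. The next in WT, d3_WT_487 (135.5 CPM), was the highest of all libraries in Ppargc1a (76.5 CPM). In mean log2 CPM of these markers it lay close to d3_WT_346 (-0.48 and -0.40). The next in KO, d3_KO_388 (165 CPM), had 34.1 CPM of Ppargc1a. With the leukocyte score as a covariate, the estimate for Ppargc1a was -0.61 in WT (edgeR adjusted p = 0.475) and 0.06 in KO (adjusted p = 0.997). Of all genes, only 0.122% in WT and 0.00642% in KO were called in these fits. Since the score does not overlap between the days, score and day cannot be told apart in them. The part of these cells in the fall was not tested further. With a score of small intestine enterocyte markers instead, the estimate for Ppargc1a was -0.59 in WT (edgeR adjusted p = 0.641) and -0.86 in KO (adjusted p = 0.0134). In bulk RNA, fewer cells that express a gene and less of its RNA per cell cannot be told apart.

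**Figure D2:**
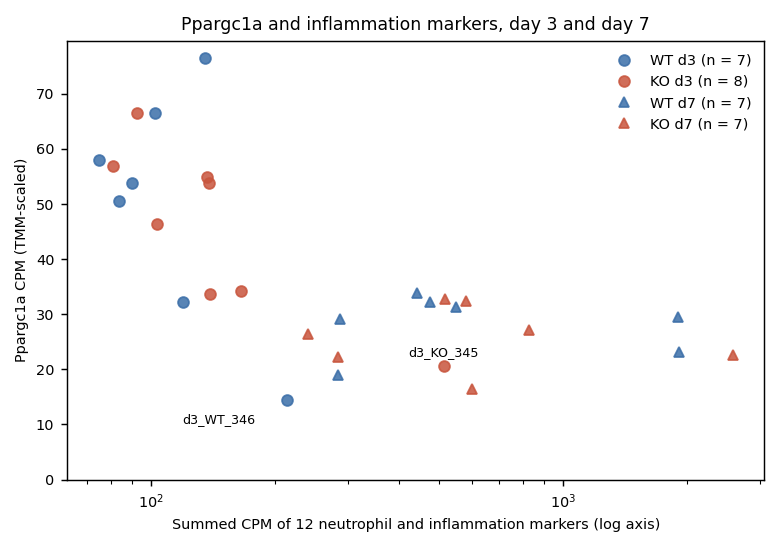
Ppargc1a level (CPM, linear axis) against the summed CPM of 12 neutrophil and inflammation markers (log axis) in the 29 libraries of day 3 (circles) and day 7 (triangles), WT in blue and KO in red. The libraries labelled d3_WT_346 and d3_KO_345, with 214 and 514 CPM of these markers, had 14.4 and 20.5 CPM of Ppargc1a, below and within the day 7 range of 16.4 to 33.9. The WT library next in these markers on day 3, d3_WT_487 (135.5 CPM), had the highest Ppargc1a level, 76.5 CPM.

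Within day 7 none of the 10 members passed the test of a relation to inflammation. Over the 14 libraries, Pearson's r of log2 CPM with the mean log2 CPM of the 12 markers was -0.134 for Ppargc1a (Spearman's rho -0.033, adjusted permutation p = 0.926 and 0.915). It was farthest from 0 for Tfam (r = -0.494, rho = -0.433, permutation p = 0.0716, adjusted p = 0.526; r = -0.441 without the 2 libraries farthest from the median score), and was positive for Dnm1l (r = 0.424, adjusted permutation p = 0.526) and Mfn2 (r = 0.381, adjusted permutation p = 0.526). Without the 2 libraries farthest from the median score, r was 0.277 for Dnm1l and 0.024 for Mfn2, so the value for Mfn2 rests on those libraries. Pink1 had the largest rho (0.464, permutation p = 0.0976, adjusted p = 0.565), with r = 0.356, and 0.317 without the same 2. The correlations over both genotypes were not recomputed without d7_WT_386, which had the highest Tfam level of day 7 (69.4 CPM) and the lowest WT score (3.51). P-values were two-sided and adjusted over the 10 members. Within WT and within KO alone (7 libraries each, exact permutation test) 0 of 10 members passed as well; r was -0.006 and -0.287 for Ppargc1a, and the smallest adjusted p was 0.386, among them that of Pink1 in KO (r = 0.782, which rests on d7_KO_420 and d7_KO_423: r = 0.059 without them).

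The other 9 members did not pass the test between day 3 and day 7 in either genotype. Ppargc1b, the paralogue of Ppargc1a, had 41.9 ± 11.0 CPM in WT on day 3 (n = 7) and 39.2 ± 6.2 on day 7 (n = 7), a log2 fold change of -0.08 with a range of -0.39 to 0.23 (2 SE). In KO it had 45.0 ± 7.3 CPM (n = 8) and 45.8 ± 3.8 (n = 7), a change of 0.03 (-0.16 to 0.21). A fall of the size seen for Ppargc1a thus lies outside both ranges, although the difference between the paralogues was not tested.

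Esrra (chromosome 19, 6910977 to 6921813, minus strand), which codes for the receptor that PGC-1α binds, had 157 ± 27 CPM in WT on day 3 and 175 ± 24 on day 7, and 149 ± 14 and 169 ± 18 in KO. All 7 day 7 libraries of KO lay above the KO day 3 median, and the estimate was 0.18 on the log2 scale (SE 0.07, edgeR adjusted p = 0.0995). Its exons share 73 bases with Trmt112 on the opposite strand, and the counting ignored strand, so a part of its counts may belong to that gene. Nrf1 (chromosome 6, 30047988 to 30153458, plus strand) stayed between 22.8 and 31.3 CPM in all day 3 and day 7 libraries, with changes of -0.07 in WT and 0.04 in KO. Tfam (chromosome 10, 71225464 to 71238280, minus strand) had 49.6 ± 6.0 and 51.2 ± 8.9 CPM in WT and 45.0 ± 1.5 and 47.7 ± 3.0 in KO on the same days.

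Among the fusion genes, Mfn1 (chromosome 3, 32529465 to 32579239, plus strand) had means of 73.0 to 77.7 CPM in the 4 DSS groups. Mfn2 (chromosome 4, 147873599 to 147904704, minus strand) and Opa1 (chromosome 16, 29579334 to 29654884, plus strand) had estimates slightly above 0 in both genotypes: 0.15 and 0.15 in WT, and 0.15 and 0.09 in KO, with edgeR adjusted p from 0.177 to 0.203. Dnm1l (chromosome 16, 16312235 to 16359030, minus strand), the fission gene, had 111 ± 14 CPM in WT on day 3 and 126 ± 11 on day 7. All 7 WT day 7 libraries lay above the day 3 median (log2 fold change 0.20, SE 0.08, edgeR adjusted p = 0.11). Without d3_WT_346, the highest WT day 3 library (141 CPM), the change was 0.26 with an adjusted p of 0.0166. This was the only 1 of 14 fits without 1 library that called it, and the adjusted p reached 0.203 in the others. In KO it had 125 ± 17 and 127 ± 8 CPM. Pink1 (chromosome 4, 138313409 to 138326307, minus strand) was wide on day 7 in WT, from 62.2 to 161 CPM, and its estimates were 0.30 in WT (SE 0.18) and 0.12 in KO (SE 0.12), neither called. Its exons share 69 bases with the microRNA gene Mir7019 and 110 with Gm27646, both on the same strand.

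**Figure D3:**
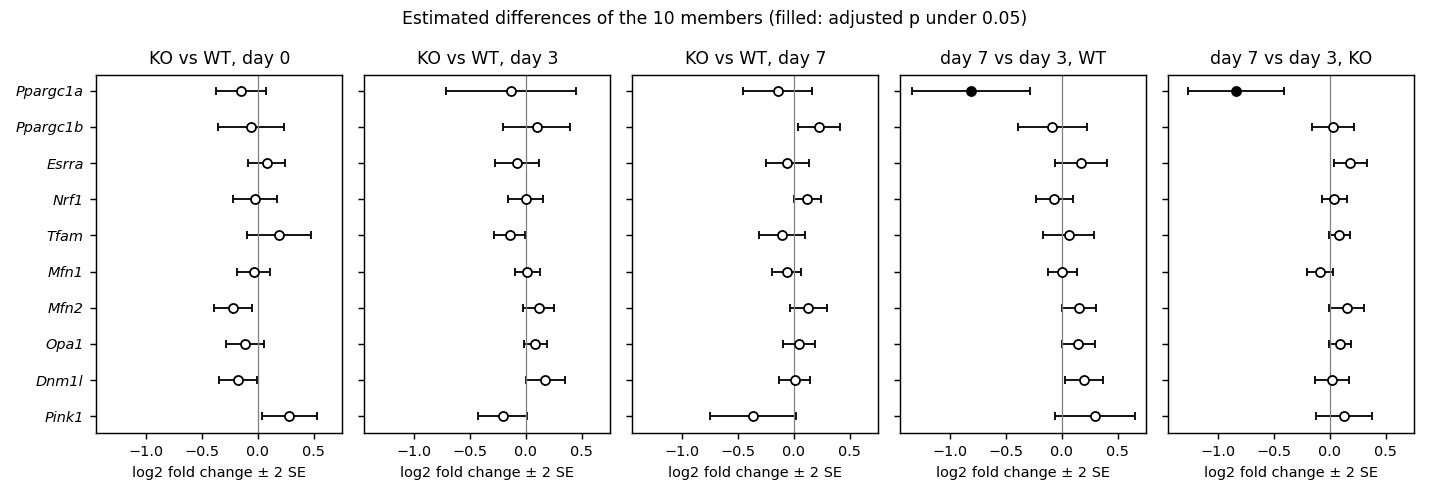
Estimated log2 fold change (edgeR) of each member in 5 comparisons; bars span 2 SE either side, and filled points have an adjusted p under 0.05. From day 3 to day 7 only Ppargc1a is filled, at -0.81 in WT and -0.84 in KO, and no member is filled in a comparison of KO with WT.

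None of the 10 members differed between KO and WT beyond the threshold on any day. In KO against WT, edgeR called 0 of 10 members on day 0 (0.0335% of all genes called), 0 on day 3 (0.00647%), 0 on day 7 (0.00642%) and 0 over all days with day as a covariate (0.0209%). At an unadjusted p under 0.05 there were 2, 0, 1 and 0 members, against 10.5%, 7.88%, 12.9% and 11.8% of all genes. DESeq2's Wald test also called 0 members in each of these comparisons. Over all genes it called 175 of 14920 on day 0, 2 of 15461 on day 3, 89 of 15584 on day 7 and 17 of 19140 over all days. Since so few genes of the whole table were called, the counts say little of the members. The median log2 fold change of the 10 members was -0.05, 0.01 and -0.02 on day 0, 3 and 7, against 0.00 over all genes on each day.

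The ranges bound what was measured. Over all days, with 20 KO and 18 WT libraries, the range of 2 SE was -0.09 to 0.05 for Mfn1, -0.05 to 0.10 for Opa1, -0.05 to 0.13 for Nrf1 and -0.07 to 0.14 for Dnm1l. It was wider for Ppargc1a (-0.41 to 0.13) and Pink1 (-0.35 to 0.05). On day 3 alone the range for Ppargc1a was -0.72 to 0.44, set by the spread of 14.4 to 76.5 CPM in WT and 20.5 to 66.5 CPM in KO.

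Mfn2 on day 0 was the 1 member whose genotypes did not overlap. The share of all genes without overlap was not counted, so this alone says little of Mfn2. The 4 WT libraries had 107, 110, 113 and 124 CPM, and the 5 KO libraries had 85.7, 93.8, 95.3, 101 and 101 CPM. The log2 fold change was -0.22 (SE 0.08, unadjusted p = 0.0215, edgeR adjusted p = 0.404). On day 3 and day 7 the estimate was above 0 (0.12 and 0.13, SE 0.07 and 0.08). The change of the genotype difference from day 0 to day 7 was 0.38 (SE 0.12, unadjusted p = 0.00483), which did not pass the correction (edgeR adjusted p = 0.208; 0.00531% of all genes called).

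Pink1 on day 0 had 54.7, 57.8, 64.1 and 86.1 CPM in WT and 74.2, 76.6, 78.2, 78.5 and 83.1 CPM in KO. The highest WT value was that of d0_WT_31, the WT library with Xist RNA. The log2 fold change was 0.28 (SE 0.12, edgeR adjusted p = 0.463). Without d0_WT_31 and d0_KO_32, the libraries with Xist RNA, it was 0.46 (edgeR adjusted p = 0.0209), with 3.73% of all genes called. These libraries were chosen after seeing the data. They hold the highest WT and the lowest KO value of Pink1. Leaving them out enlarges the difference by itself, so this value adds no support. The estimate was below 0 on day 3 (-0.21, SE 0.11) and on day 7 (-0.36, SE 0.19), and the change of the genotype difference from day 0 to day 7 was -0.62 (SE 0.27, edgeR adjusted p = 0.321). Ppargc1b had an unadjusted p of 0.0298 on day 7 (0.22 higher in KO, SE 0.09, edgeR adjusted p = 0.354), with 39.2 ± 6.2 CPM in WT and 45.8 ± 3.8 in KO (n = 7 each). Small intestine enterocyte markers had a mean log2 CPM of 2.16 to 4.86 in KO and 1.12 to 2.42 in WT on day 0. With this score as a covariate 0 of 10 members were called between the genotypes on day 0 (0.00669% of all genes). This count thus says little of the members. The estimates were -0.29 for Mfn2 (edgeR adjusted p = 0.328), 0.25 for Pink1 (adjusted p = 0.461) and -0.30 for Ppargc1a (adjusted p = 0.348).

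Against day 0, where the library series differ, more members were called, at shares near or below those of the whole table. From day 0 to day 3, 1 of 10 members was called in WT (46% of all genes) and 2 of 10 in KO (46.3%). By day 7 it was 6 of 10 in WT (56.9%) and 5 of 10 in KO (54.6%). Comparisons within a genotype share the day 0 libraries. In each of them time cannot be told apart from the series of libraries. Here and below, groups without overlap are only described, since the share of all genes without overlap was not counted.

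With that limit, the biogenesis genes did not move one way. Ppargc1a had 34.6, 34.8, 39.6 and 46.4 CPM in WT and 28.5, 34.3, 34.6, 35.9 and 37.9 CPM in KO on day 0. Its day 7 level was lower in both genotypes (log2 fold change -0.53 and -0.53, SE 0.15 and 0.15, edgeR adjusted p = 0.00774 and 0.00764), and no WT library overlapped. In 1 fit of all 38 libraries these calls were lost (-0.50 and -0.51, adjusted p = 0.0947 and 0.0794), and the KO call was also lost in a fit with the enterocyte score added (-0.40, adjusted p = 0.0924). On day 3 it was not called (0.28 in WT, SE 0.32, and 0.30 in KO, SE 0.22). Without the libraries that stood apart, the lowest of day 3 among them, the estimate was 0.55 in WT (edgeR adjusted p = 0.00494) and 0.39 in KO (adjusted p = 0.074). Ppargc1b was lower on day 7 in WT (-0.53, SE 0.14, adjusted p = 0.00554), with -0.26 in KO (adjusted p = 0.0572). Nrf1 was lower on day 7 in both genotypes (-0.35 in WT and -0.21 in KO, adjusted p = 0.00883 and 0.0133), and on day 3 in KO (-0.25, adjusted p = 0.0125); the day 7 call in KO was lost without d0_KO_24 (adjusted p = 0.0839).

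Esrra and Tfam were higher. Esrra rose by day 7 in both genotypes (0.39 in WT and 0.25 in KO, edgeR adjusted p = 0.0105 and 0.0185), and no day 7 library overlapped with day 0 of its genotype. Tfam had 27.9, 31.2, 34.3 and 43.6 CPM in WT on day 0. It was higher on day 3 (0.44, SE 0.13, edgeR adjusted p = 0.0144), where the lowest of 7 libraries had 44.6 CPM, and on day 7 (0.51, adjusted p = 0.0101); the day 3 call was lost without d0_WT_46 (adjusted p = 0.0665). In KO the Tfam estimates were 0.12 and 0.21, not called (edgeR adjusted p = 0.228 and 0.0614). Without d0_KO_32, which had 48.2 CPM against 32.9 to 37.7 in the other 4, they were 0.25 and 0.32 (edgeR adjusted p = 0.00185 and 0.00207). Leaving out the highest day 0 library enlarges a rise by itself, so these values add no support.

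Among the dynamics genes, Dnm1l was higher than on day 0 in KO on day 3 (0.31, SE 0.10, edgeR adjusted p = 0.0158) and day 7 (0.33, SE 0.08, adjusted p = 0.00209), with no overlap. In WT, where day 0 was at 103 to 110 CPM, the estimates were -0.05 and 0.15 and were not called. Day 7 in WT was at 112 to 142 CPM and did not overlap with day 0. Mfn2 was higher on day 7 in KO (0.31, SE 0.08, adjusted p = 0.0064), with -0.03 in WT. Pink1 was called higher on day 7 in WT (0.60, SE 0.23, adjusted p = 0.038) and not in KO (-0.06, SE 0.13), and the WT call was lost in 7 of 11 fits without 1 library. None of these 3 differences between genotypes passed its own interaction test (edgeR adjusted p = 0.208 for Mfn2, 0.401 for Dnm1l, 0.321 for Pink1). Mfn1 and Opa1 were called in neither genotype. Mfn1 on day 3 in KO and on day 7 in WT, and Opa1 on day 7 in KO, did not overlap with day 0. With the leukocyte score as a covariate, 0 members were called from day 0 to day 7 in either genotype. Of all genes, 21% were then called in WT and 1.28% in KO, so the count in KO says little of the members. This score did not overlap between these days in either genotype.

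The wider pathway was read from 5 lists of nuclear genes, members included, between day 3 and day 7. Of 25 biogenesis regulators tested, 4 were called lower and 0 higher in WT, and 2 lower and 3 higher in KO. Of 24 genes of mitochondrial DNA transcription and replication, 1 was called lower in WT and 0 in KO. Of 22 genes of fusion and inner membrane shape, 1 was called higher in WT and 0 in KO, and of 18 fission genes 0 in WT and 1 lower in KO. Of 30 genes of mitophagy and mitochondrial transport tested in WT, 6 were called higher and 0 lower; of 29 tested in KO, 4 were called higher and 1 lower. These shares (16% and 20% for the regulators, 20% and 17.2% for mitophagy, 0 to 5.56% for the other 3 lists) stand beside 19.3% of all genes. The lists' median log2 fold changes were -0.05 to 0.10 in WT and -0.01 to 0.06 in KO, against 0.01 and -0.01 over all genes. In KO against WT, 0 genes of the 5 lists were called on day 0, 3 or 7.

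Esrrg, which codes for estrogen-related receptor γ, another receptor that PGC-1α binds, fell most among the regulators. It went from 11.4 ± 3.6 CPM on day 3 to 2.28 ± 1.14 on day 7 in WT (log2 fold change -2.31, SE 0.33, edgeR adjusted p = 0.000247) and from 11.3 ± 2.9 to 1.52 ± 0.56 CPM in KO (-2.89, SE 0.24, adjusted p = 4.77e-06), with no overlap between the days in either genotype (lowest day 3 library 4.94 and 6.02 CPM, highest day 7 library 4.01 and 2.34 CPM). Ppard, a lipid-sensing nuclear receptor gene, fell in WT (-0.39, adjusted p = 0.0293), as did Stk11, which codes for the kinase LKB1 (-0.20, adjusted p = 0.0482). In KO, Ppara rose (0.49, adjusted p = 0.00483), as did Pparg (0.28, adjusted p = 0.0295) and Perm1, a regulator of muscle mitochondria, at means of 1.93 and 2.75 CPM (0.52, adjusted p = 0.0425).

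Bnip3, a mitophagy receptor gene, rose from 6.63 ± 1.95 to 15.7 ± 7.5 CPM in WT (log2 fold change 1.26, SE 0.29, edgeR adjusted p = 0.00629) and from 5.65 ± 0.79 to 11.5 ± 6.6 CPM in KO (1.03, SE 0.27, adjusted p = 0.0142). The autophagy receptor genes Tax1bp1 (0.44 in WT and 0.44 in KO, adjusted p = 0.0262 and 0.0157) and Optn (0.37 and 0.41, adjusted p = 0.0146 and 0.0277) rose in both genotypes, as did Tbk1, whose kinase phosphorylates optineurin (0.35 and 0.35, adjusted p = 0.0116 and 0.037). Parl, which codes for the protease that cleaves PINK1, rose in WT (0.37, adjusted p = 0.0401). Trak1, an adaptor for mitochondrial movement along microtubules, fell in KO (-0.36, adjusted p = 0.0112). In the other lists, Twnk, the mitochondrial DNA helicase gene, fell in WT (-0.41, adjusted p = 0.0474), Samm50, an outer membrane assembly gene, rose in WT (0.28, adjusted p = 0.044), and the fission regulator gene Mtfr1 fell in KO (-0.21, adjusted p = 0.0474). With the leukocyte score as a covariate, 0 genes of these lists were called in either genotype, against 0.122% of all genes in WT and 0.00642% in KO. Without the libraries that stood apart, the calls of Tax1bp1 in WT and of Perm1 and Mtfr1 in KO were lost; 1 regulator was then called higher and 7 lower in WT, and 2 higher and 4 lower in KO, against 27.7% and 22.2% of all genes. Genotype differences in these changes were not called for any gene of the whole table by edgeR (0 of 16371 genes at an adjusted p under 0.05 and 440 at an unadjusted p under 0.05; 0 by DESeq2).

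**Figure D4:**
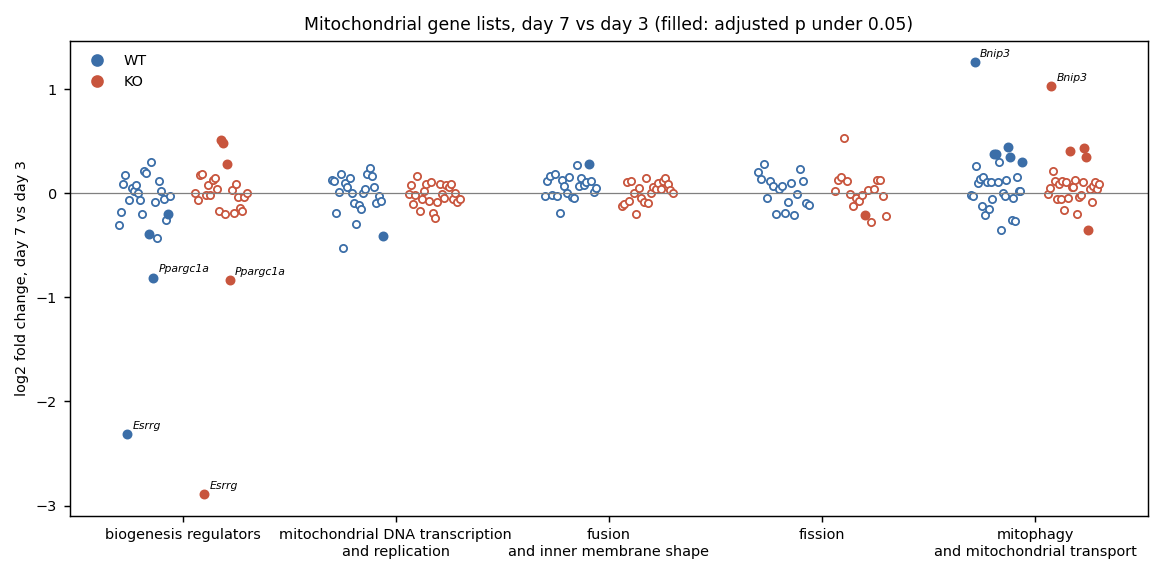
Log2 fold change from day 3 to day 7 of the genes in 5 lists, WT in blue and KO in red; filled points have an edgeR adjusted p under 0.05, and genes beyond 0.75 on either side of 0 among these are named. Esrrg (-2.31 and -2.89) and Ppargc1a (-0.81 and -0.84) lie lowest, and Bnip3 (1.26 and 1.03) highest, in WT and KO.

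Nuclear copies share sequence with some of the mitochondrial genome's own messenger RNAs, and their part in the counts was not tested. These messenger RNAs are therefore given with less certainty. Of 11 tested, 0 were called in WT and 3 in KO (mt-Co3, mt-Atp6 and mt-Nd3, all lower on day 7), that is 27.3% of the list in KO against 19.3% of all genes called and 8.83% called lower. The first pair had at most 0.82 and 1.04 CPM on day 7 and reached 45.2 and 19.9 CPM in single KO libraries of day 3, so they are given as uncertain.

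Genes of like pattern were sought over the 29 day 3 and day 7 libraries among 10570 genes, by Spearman's rho of log2 CPM, as a description; the libraries share days and genotypes. Ppargc1a was most like Kcnk5 and Kcnf1, both potassium channel genes (rho 0.883 and 0.876). Esrra was most like Fis1, a mitochondrial fission gene (0.929), and Trappc3 (0.914). Opa1 was closest to Cltc and Cyfip1 (0.925 and 0.918), Dnm1l to Zfp143 and Ppp4r1 (0.942 and 0.908), and Pink1 to Abtb1 and Nr1i2 (0.901 and 0.886). Mfn2 was closest to Gna11 (0.832), Nrf1 to Ddx24 (0.877), and Ppargc1b to Gm15800 and Pcnx (0.867 each). Tfam and Mfn1 had no gene above 0.739 (Anp32b) and 0.703 (Mapre2). Among the members themselves, Mfn2 and Opa1 were most alike (0.71), followed by Opa1 and Dnm1l (0.668). The member closest to Ppargc1a was Pink1, at 0.248.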

How the data were processed

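Deposited files hold raw counts per gene, 2 lanes per library, which were summed. The authors counted with featureCounts 1.6.2 without regard to strand, per the file headers; the submitters' processing notes name Trim Galore, STAR, featureCounts 1.5.2 and GRCm38, and the annotation release is not given in the sources used here. Libraries were stranded mRNA (paired reads of 50 bases, 23 M on average, per the labels). Groups come from the labels. The members and gene lists were chosen with earlier results of these data known.

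Counts were tested with edgeR 4.0.16 (R 4.3.3; quasi-likelihood, TMM scaling, filterByExpr), fitting the compared groups only, with Benjamini-Hochberg adjustment over all genes tested and a threshold of 0.05; the script was tested on simulated data. P-values measure the spread between animals. CPM is TMM-scaled; log2 CPM has a prior count of 2. Depth was 10.5 to 60.6 M counts, and 3 counts equal 0.0495 to 0.286 CPM. Correlations used 100000 permutations. The alternatives were DESeq2 1.42.0 (test or size factors), other filters, 1 fit of all 38 libraries, lane 1 alone, robust dispersion, marker scores as covariates, no mitochondrial genome genes, and leaving out libraries. Named genes are all members, Hk2, from each list up to 4 per direction with the largest called change between day 3 and day 7 at a mean log2 CPM of at least 1 (Tbk1 in WT was added after its value was seen), and the 2 genes of most like pattern per member at a mean log2 CPM of at least 2. Promoters came from RefSeq, GRCm38.p6; 4 list genes with other names in the files were matched by identifier or synonym.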

Additional observations from a re-analysis of the deposited data

Results flagged for a closer look

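Within the groups, 60 sets of values (10 members in 6 groups) were checked for a single library far from the rest, and 2 were found. By chance about 1 set in 20 is flagged, so 2 of 60 is not more than chance gives. Both concern Dnm1l. On day 0 in KO, d0_KO_32 had 107 CPM against 87.3 to 92.7 CPM in the other 4 libraries; its gap to the nearest was 0.728 of the range, above the critical value of 0.71 for 5 samples. This library also had the largest share of mitochondrial genome counts (61.7%) and Xist RNA. On day 3 in WT, d3_WT_346 had 141 CPM against 99.8 to 112 CPM in the other 6 libraries, a gap of 0.697 of the range against a critical value of 0.568 for 7 samples. It was also the lowest WT library of that day in Hk2 (99.3 CPM) and Ppargc1a (14.4 CPM). The part of these features in the Dnm1l values was not tested.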

How the results depend on the processing

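No analysis paired by animal was possible because each animal number occurs once, so no number is shared between groups. Litter and cage were not part of the fits, although WT mice were littermates and DSS mice of both genotypes shared cages. Leaving out the 5 libraries that stood apart and leaving out the 2 day 0 libraries with Xist RNA were chosen after seeing the data, as were both alternatives for the gene lists. Of 1390 values of members under the other settings, 1255 kept direction and side of the threshold, 28 lost a call, 52 gained one, 54 uncalled values changed sign and 1 called value reversed: Ppargc1a from day 3 to day 7 in KO, 0.061 with the leukocyte covariate. Of 2040 values without 1 library, 1900 kept both, 20 lost and 26 gained a call, 94 uncalled values changed sign and 0 called values reversed. The causes of these moves were not tested.

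Members called moved as follows. In KO against WT on day 0 there was 1 without the Xist libraries. From day 3 to day 7 in WT there were 3 in the fit of all 38 libraries, 0 with the leukocyte and 0 with the small intestine covariate, 2 without the 5 libraries and 0 to 2 without 1 library; in KO there were 0 with the leukocyte covariate. Between day 0 and day 3 in WT there were 4 with DESeq2 size factors, 5 with DESeq2, 5 at a mean CPM of at least 1, 3 in the fit of all libraries, 2 with lane 1, 2 with either covariate, 3 without the 5, 4 without the Xist libraries and 0 to 4 without 1. In KO there were 4 at a mean CPM of at least 1, 0 with either covariate, 4 without the 5, 5 without the Xist libraries and 2 to 5 without 1. From day 0 to day 7 in WT there were 0 with the leukocyte covariate and 5 to 6 without 1; in KO there were 8 with DESeq2, 0 with the leukocyte and 2 with the small intestine covariate, 8 without the 5, 8 without the Xist libraries and 5 to 8 without 1. Over the alternatives that kept all libraries or left out a set of them, all genes called were 38.6 to 51% from day 0 to day 3 in WT and 20.1 to 50.6% in KO, 21 to 62.5% from day 0 to day 7 in WT and 1.28 to 57.9% in KO, and 0.122 to 27.7% from day 3 to day 7 in WT and 0.00642 to 22.6% in KO.

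All genes called in KO against WT on day 0 were 5, against 175 with DESeq2, 52 with no filter, 1 with the small intestine covariate, 8 without the 5, 565 without the Xist libraries and 0 to 37 without 1 library. On day 3 the 1 gene called became 2 with DESeq2, 0 at a mean CPM of at least 1, 0 with either covariate, 2 without the 5 and 0 to 1 without 1. On day 7 the 1 gene became 89 with DESeq2, 2 with no filter, 0 at a mean CPM of at least 1, 38 in the fit of all libraries and 1 to 2 without 1. Over all days the 4 genes became 17 with DESeq2, 1 at a mean CPM of at least 1, 2 with lane 1, 17 without the 5 and 3 to 7 without 1. From day 3 to day 7 the 3002 genes in WT became 19 with the leukocyte and 267 with the small intestine covariate and 2323 to 4051 without 1; the 3008 in KO became 1 with the leukocyte covariate and 2470 to 3518 without 1. Between day 0 and day 3 the 7409 in KO became 3215 with the leukocyte and 4617 with the small intestine covariate and 6411 to 8343 without 1. From day 0 to day 7 the 9919 in WT became 3662 with the leukocyte covariate and 8095 to 10740 without 1, and the 8938 in KO became 210 and 8036 to 9967. The 1 gene called in genotype by day (day 7 against day 0) became 148 with DESeq2, 4 in the fit of all libraries, 0 with the small intestine covariate, 4 without the 5, 6 without the Xist libraries and 0 to 279 without 1.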
